A study of Mus musculus with 2 samples.

Results

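Bone morphogenetic protein (BMP) antagonists were followed as a group of 7 genes, Grem1, Chrd, Chrdl1, Nog, Fst, Fstl1 and Sostdc1, named as a gene family. All 7 were among the 31053 genes of both count tables, and each had at least 1 unique molecular identifier (UMI) in cells of both libraries. The tables hold droplet 3′ RNA-seq of mouse intestinal lamina propria, sorted as DAPI-, Ter119-, Epcam- and CD45- cells from C57BL/6 mice aged 11 weeks. One library (ApcMin) came from ApcMin/+;Lef1 +/+ mice, which carried no Cre, and the other (VApcMinL) from ApcMin/+;Lef1 fl/fl; Villin-Cre mice. Both genotypes thus carried the ApcMin allele, Villin drives Cre in the intestinal epithelium and not in the stroma that was sorted, and the Cre itself was present in VApcMinL only. How many mice were pooled for a library is not given in the sources used here. With 1 library per genotype there was no replicate, so no test between genotypes was possible. All intervals below are exact 95% intervals for counting error only.

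BMPs are secreted signals that hold intestinal epithelial cells in a differentiated state, and they are most active toward the villus. Antagonists bind the ligands outside the cell and keep them from their receptors, and around the crypt base they come largely from stromal cells below the epithelium. Gremlin 1 (Grem1), chordin (Chrd), chordin-like 1 (Chrdl1) and noggin (Nog) bind BMPs directly. Follistatin (Fst) binds activins most tightly and BMPs more weakly, follistatin-like 1 (Fstl1) is a secreted glycoprotein that can dampen BMP signaling, and Sostdc1 (also called Wise or ectodin) acts on both BMP and Wnt signals.

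The rule kept barcodes with at least 3000 UMIs and at most 20% mitochondrial UMIs. It left 6599 ApcMin and 6569 VApcMinL barcodes, and 6251 and 6224 cells remained after doublets were taken out. The files hold 93203061 and 101609269 UMIs in all, and barcodes that met the rule had a median of 10849 and 9111. The libraries shared 18 barcodes. Cells were clustered without the 7 genes, and clusters were named "like" a cell type from marker genes. Despite the sort, erythroid-like cells (1362 in ApcMin and 360 in VApcMinL), B cell-like cells (649 and 348) and plasma cell-like cells (460 and 531) were present. Fibroblast-like cells numbered 3060 and 3510, and every cluster in that class had all 8 fibroblast markers in at least 25% of its cells.

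The fibroblast-like cells formed 8 clusters. The Pi16 subset, led by Pi16, Has1 and Mfap5, held 1109 ApcMin and 755 VApcMinL cells. The Lpl Penk Plau subset held 859 and 693 cells, the Ackr4 subset (led by Ackr4, Stc2 and Col8a1) 488 and 675, the Adamdec1 subset 337 and 767, and the Scg2 Chodl Fibin subset 118 and 104. A pair of smaller clusters carried subepithelial markers, 1 led by Wif1 (20 and 121 cells) and 1 led by Bmp5, Bmp7 and Bmp3 (10 and 65 cells). A cluster led by Mmp10 (119 and 330 cells) matched no subset list, although Adamdec1 was among its leading genes. Levels are given as CPM, UMI counts scaled to the same total in every group of cells. They are 3′ counts with no correction for transcript form, so levels are compared for 1 gene between cells and not between genes.

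Grem1 (ENSMUSG00000074934) lies at chr2:113746164-113758646 of GRCm38 on the minus strand, and Chrd (ENSMUSG00000006958) at chr16:20733127-20742384 on the plus strand. The 250 bases before the start of each are shown because Grem1 was concentrated in 1 fibroblast subset and Chrd spread over several. Both runs are from RefSeq on GRCm38.p6, 5′ to 3′ on the strand of the gene, at chr2:113758649-113758898 for Grem1 and chr16:20732877-20733126 for Chrd. Capitals mark 2 motifs found on either strand, the GC box GGGCGG, which on the opposite strand reads as CCGCCC, and the GC-rich element GGCGCC, which BMP-activated Smads can bind and which reads the same on both strands.
Grem1: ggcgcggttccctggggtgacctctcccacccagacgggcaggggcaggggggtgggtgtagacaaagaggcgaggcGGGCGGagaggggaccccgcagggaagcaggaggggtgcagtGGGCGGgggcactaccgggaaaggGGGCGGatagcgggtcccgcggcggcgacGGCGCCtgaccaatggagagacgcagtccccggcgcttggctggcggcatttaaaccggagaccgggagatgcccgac
Chrd: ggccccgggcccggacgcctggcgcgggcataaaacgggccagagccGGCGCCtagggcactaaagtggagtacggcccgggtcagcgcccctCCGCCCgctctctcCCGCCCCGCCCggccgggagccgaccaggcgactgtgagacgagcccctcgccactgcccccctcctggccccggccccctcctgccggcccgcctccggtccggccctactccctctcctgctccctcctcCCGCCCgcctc
The Grem1 run held 3 GC boxes and the Chrd run 4, of which 2 overlap by 1 base, and each held GGCGCC once. Among 32851 mouse promoter windows of the same length, 32.7% held GGGCGG and 9.59% held GGCGCC. Neither run held TATAAA (12.4% of windows), the Smad palindrome GTCTAGAC (0.167%) or the Tcf/Lef letters CTTTGAT (3.21%) and CTTTGAA (4.46%). G and C made up 72% of the Grem1 run and 78% of the Chrd run, against a median of 52.4% over all windows. Of the 7 members, 3 were in the promoter table, and the third, Fstl1, is not printed because its window overlaps the annotated gene (chr16:37776873-37836514, plus strand). The other members lie at chrX:143285674-143394262 (Chrdl1, minus), chr11:89300638-89302332 (Nog, minus), chr13:114452290-114458951 (Fst, minus) and chr12:36314139-36318452 (Sostdc1, plus).

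Grem1 mRNA was concentrated in the Ackr4 subset of both libraries. Its level there was 3050 CPM (3009 to 3091) in ApcMin and 2761 CPM (2725 to 2797) in VApcMinL. The Ackr4 subset made up 7.81% and 10.8% of all cells and held 73.9% (73.4 to 74.4) and 68.9% (68.4 to 69.4) of all Grem1 UMIs. With each cell thinned to 3000 UMIs, Grem1 was detected in 96.3% of ApcMin and 96.0% of VApcMinL cells of the subset, so nearly every cell of this cluster carried it. Detection and the share of Grem1 UMIs were both lower, in both libraries, when each cell was classed by its own markers. Those values are given with the alternative settings below. The median cell had 26.8 and 24.7 Grem1 UMIs per 10000. Grem1 was itself among the 10 leading genes of this cluster although it was left out of the clustering, so its high level there describes the subset and was not tested.

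The Adamdec1 subset came second among the fibroblast-like clusters, at 945 CPM (916 to 975) in ApcMin and 676 CPM (657 to 695) in VApcMinL. A fibroblast cluster led by immunoglobulin genes, left unnamed and out of this class, was higher in VApcMinL, at 1237 CPM. Detection in thinned cells was 65.0% and 55%, and the median cell had 4.60 and 3.1 Grem1 UMIs per 10000, so the subset mixed high and low cells. Adamdec1 itself was not particular to this subset. In cells with 0 Grem1 UMIs it was at 9919 and 13359 CPM there and at 10149 and 14527 CPM in the Mmp10 cluster. That cluster had Grem1 at 9.04 and 129 CPM. In the Scg2 Chodl Fibin subset the level was 178 CPM (157 to 200) and 226 CPM (199 to 256), and in the Pi16 subset 111 CPM (106 to 117) and 305 CPM (295 to 316). The order of these last 2 subsets thus differed between the libraries. The Lpl Penk Plau subset had 40.4 CPM (36.6 to 44.5) and 15.4 CPM (12.6 to 18.8), and most of that sat in few cells, since the 10 cells richest in Grem1 held 91.8% and 85.1% of it. In the cluster led by Wif1, Grem1 gave 0 UMIs in 20 ApcMin cells, which allows up to 15.0% of such cells to hold a UMI at this depth, and 22 UMIs in 121 VApcMinL cells (13.3 CPM). In the cluster led by Bmp5 it gave 0 UMIs in 10 cells, which allows up to 30% to hold a UMI, and 27 UMIs in 65 (44.1 CPM). These limits concern cells with a UMI, not cells that express the gene.

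**Figure D1:**
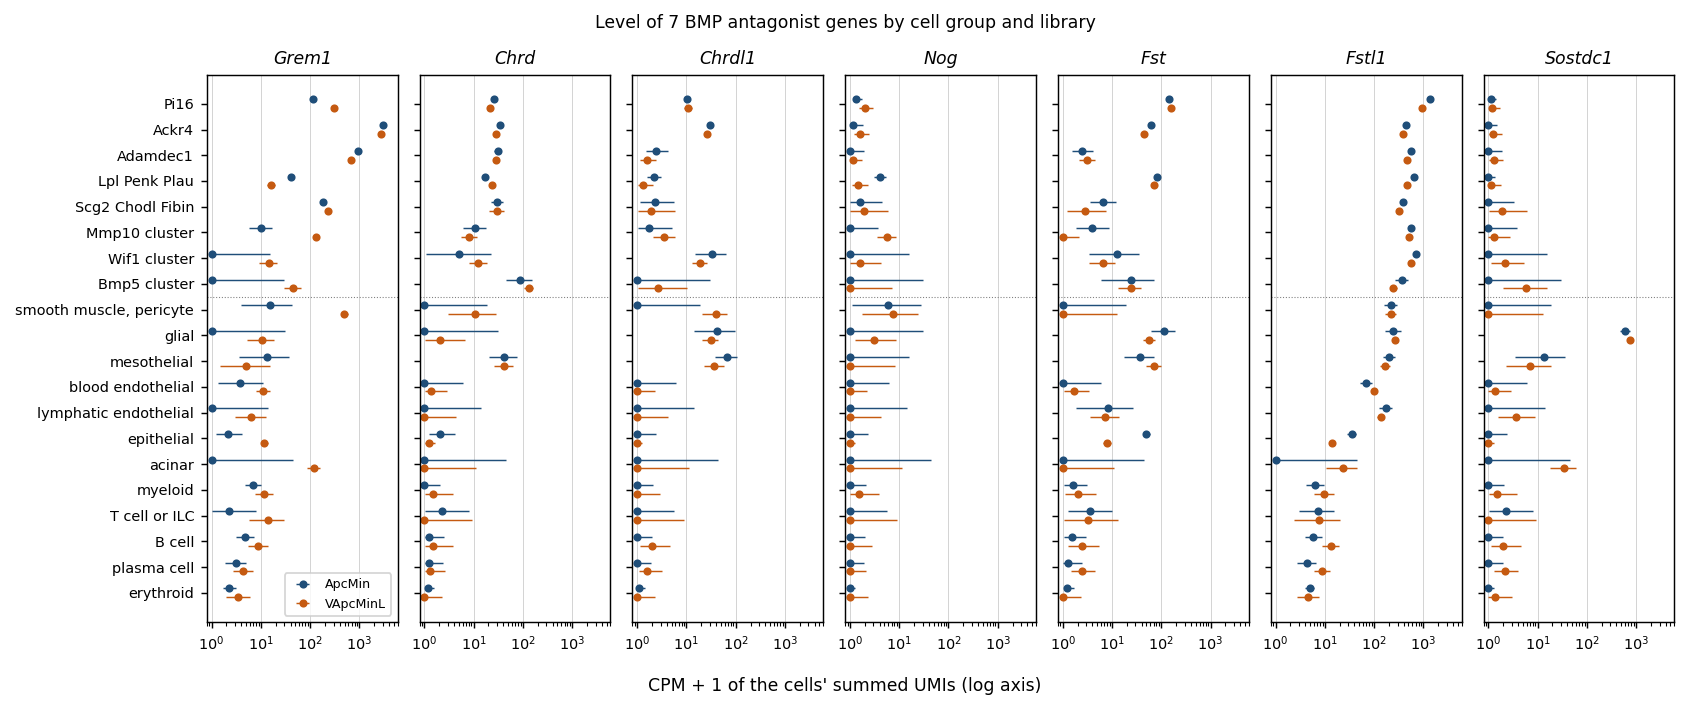
Level of each member (CPM + 1, log axis) by cell group, 1 point per library (ApcMin and VApcMinL) with exact 95% Poisson error bars for counting error only, and a dotted line under the fibroblast-like clusters. Grem1 peaks in the Ackr4 subset at 3050 and 2761 CPM, Fst and Fstl1 in the Pi16 subset, and Sostdc1 in glial-like cells.

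Cells of the B lineage gave the background for Grem1. In B cell-like cells it was detected in 1.54% and 2.59% of thinned cells, and in plasma cell-like cells in 1.30% and 1.32%, at median depths between 4582.5 and 7226.5 UMIs. These cells are not a known source of Grem1, so shares of this size were read as background. Empty droplets held Grem1 at 113 CPM in ApcMin and 128 CPM in VApcMinL, which shows that Grem1 RNA was free in both suspensions. Fstl1 was free too, at 161 and 172 CPM in empty droplets, against 4.86 and 12.3 CPM in B cell-like cells.

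Smooth muscle is a known site of Grem1 in the gut wall, but few such cells were captured. The cluster with smooth muscle and pericyte markers held 35 ApcMin and 43 VApcMinL cells. Grem1 gave 3 UMIs there in ApcMin (14.6 CPM, 3.01 to 42.6) and 156 UMIs in VApcMinL (495 CPM, 420 to 579). The cells were then split by their own markers, a split made after the levels had been seen. In VApcMinL, all 156 UMIs were in 8 of the 19 cells with more smooth muscle than pericyte markers, and the 24 cells with more pericyte markers had 0, which allows up to 12.5% of such cells to hold a UMI. In ApcMin, 9 cells with more smooth muscle markers had 1 UMI and 26 with more pericyte markers had 2. Within VApcMinL, 7 cells with at least 10 UMIs of Actg2, the visceral smooth muscle actin, held 144 of the 156 UMIs, in 6 of the 7 cells. ApcMin had 2 such cells, with 0 Grem1 UMIs, so the difference between libraries in this cluster cannot be told apart from which mural cells were captured. Chrdl1 was also in this cluster of VApcMinL, with 12 UMIs in 2 cells, against 0 in ApcMin, and Fst had 0 UMIs in both.

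Fst followed another pattern than Grem1. It was highest among the fibroblast-like clusters in the Pi16 subset, at 141 CPM (135 to 147) in ApcMin and 154 CPM (146 to 161) in VApcMinL, and this subset held 59.5% and 59.1% of all Fst UMIs. The Lpl Penk Plau subset followed at 82.9 CPM (77.4 to 88.7) and 70.2 CPM (63.9 to 76.9), and the Ackr4 subset at 61.2 CPM (55.5 to 67.3) and 43.8 CPM (39.4 to 48.6). In the Adamdec1 subset, second for Grem1 among the fibroblast-like clusters, Fst was at 1.44 and 2.09 CPM, close to its level in plasma cell-like cells of VApcMinL (1.51 CPM). Detection in thinned Pi16 cells was 25.8% in both libraries, and in B cell-like cells 0.308% and 0.287%. Enteric glial-like cells, the support cells of gut nerves, had Fst at 114 CPM (62.2 to 191) in 21 ApcMin cells and 56.0 CPM (42.1 to 73.1) in 160 VApcMinL cells. Mesothelial-like cells, which line the outer gut surface, had 36.7 CPM (16.8 to 69.7) in 7 cells and 70.3 CPM (48.9 to 97.7) in 31.

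Fstl1 was the broadest member. In thinned fibroblast-like cells it was detected in 81.6% of ApcMin and 71.1% of VApcMinL cells, against 1.54% and 3.16% of B cell-like cells. Its level was highest in the Pi16 subset, 1346 CPM (1328 to 1363) and 959 CPM (940 to 978), and it was above 200 CPM in every fibroblast-like cluster of both libraries. The Wif1 cluster had 719 and 565 CPM, the Lpl Penk Plau subset 662 and 458, the Adamdec1 subset 574 and 466, and the Ackr4 subset, highest for Grem1, 451 and 390. Beyond fibroblasts it was present in glial-like cells (244 and 267 CPM), the smooth muscle and pericyte cluster (219 and 216 CPM), mesothelial-like cells (204 and 167 CPM), lymphatic endothelial-like cells (173 and 135 CPM) and blood endothelial-like cells (67.3 and 101 CPM). It was thus a mesenchymal, glial and vascular transcript. It was near background in B cell-like, plasma cell-like, erythroid-like and myeloid-like cells, where it reached at most 12.3 CPM. Epithelial-like cells had 33.9 and 12.9 CPM.

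Chrd was spread over the 4 large and 1 small named subsets. It lay between 16.1 CPM (Lpl Penk Plau subset, ApcMin) and 32.7 CPM (Ackr4 subset, ApcMin) in the Pi16, Lpl Penk Plau, Ackr4, Adamdec1 and Scg2 Chodl Fibin subsets of both libraries. The cluster led by Bmp5, Bmp7 and Bmp3 stood above them, at 86.9 CPM (43.4 to 155) in ApcMin and 129 CPM (102 to 161) in VApcMinL. Detection there was 30% of 10 and 41.5% of 65 thinned cells, against 6.93% and 7.38% of all fibroblast-like cells. The antagonist chordin was therefore highest in the cells that were also highest for the ligands Bmp5 (1106 and 952 CPM), Bmp7 (498 and 544 CPM) and Bmp3 (490 and 332 CPM). These ligands were among the genes the cells were clustered on, so this is a description. The other subepithelial cluster, led by Wif1, had Chrd at 3.95 and 11.5 CPM.

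Chrdl1 was sparse and followed Grem1 in part. The Ackr4 subset had 28.9 CPM (25.0 to 33.1) and 24.6 CPM (21.3 to 28.2) and held 46.7% and 48.8% of its UMIs, and the Pi16 subset had 9.44 and 9.68 CPM. In the Adamdec1 subset, rich in Grem1, it was at 1.44 and 0.558 CPM. Glial-like cells had 40.6 CPM (5 UMIs) and 30.1 CPM (29 UMIs), and mesothelial-like cells 65.3 CPM (16 UMIs in 2 of 7 cells) and 36.1 CPM (18 UMIs in 12 of 31 cells). The Wif1 cluster had 31.6 and 17.5 CPM, but all 8 of its ApcMin UMIs were in 1 cell.

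Nog was close to the detection limit, with 42 UMIs in each library over all cells. In ApcMin, 32 of them were in the Lpl Penk Plau subset, spread over 26 cells, and in VApcMinL this subset had 3 UMIs in 2 cells. In VApcMinL, 15 of the 42 were in a single cell of the Mmp10 cluster and 11 in the Pi16 subset. At this depth a difference in Nog between the libraries rests on few cells, and its level in all fibroblast-like cells was 0.964 CPM (0.688 to 1.31) and 0.952 CPM (0.670 to 1.31).

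Sostdc1 was a glial transcript in these data. Glial-like cells, which had Kcna1 and Cdh19 among their leading genes, held 92.4% of its ApcMin UMIs (73 of 79) and 94.6% of its VApcMinL UMIs (713 of 754). Its level there was 593 CPM (465 to 746) in 21 cells and 740 CPM (687 to 796) in 160 cells. Detection in thinned glial-like cells was 61.9% (38.4 to 81.9) and 77.5% (70.2 to 83.7), intervals that overlap. Fibroblast-like cells had 2 and 14 UMIs in all, that is 0.0482 and 0.360 CPM. Acinar-like cells of VApcMinL, with pancreatic enzyme genes among their leading genes, had 12 UMIs spread over 8 of 16 cells, and those of ApcMin 0 in 10 cells, which allows up to 30% of such cells to hold a UMI.

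**Figure D2:**
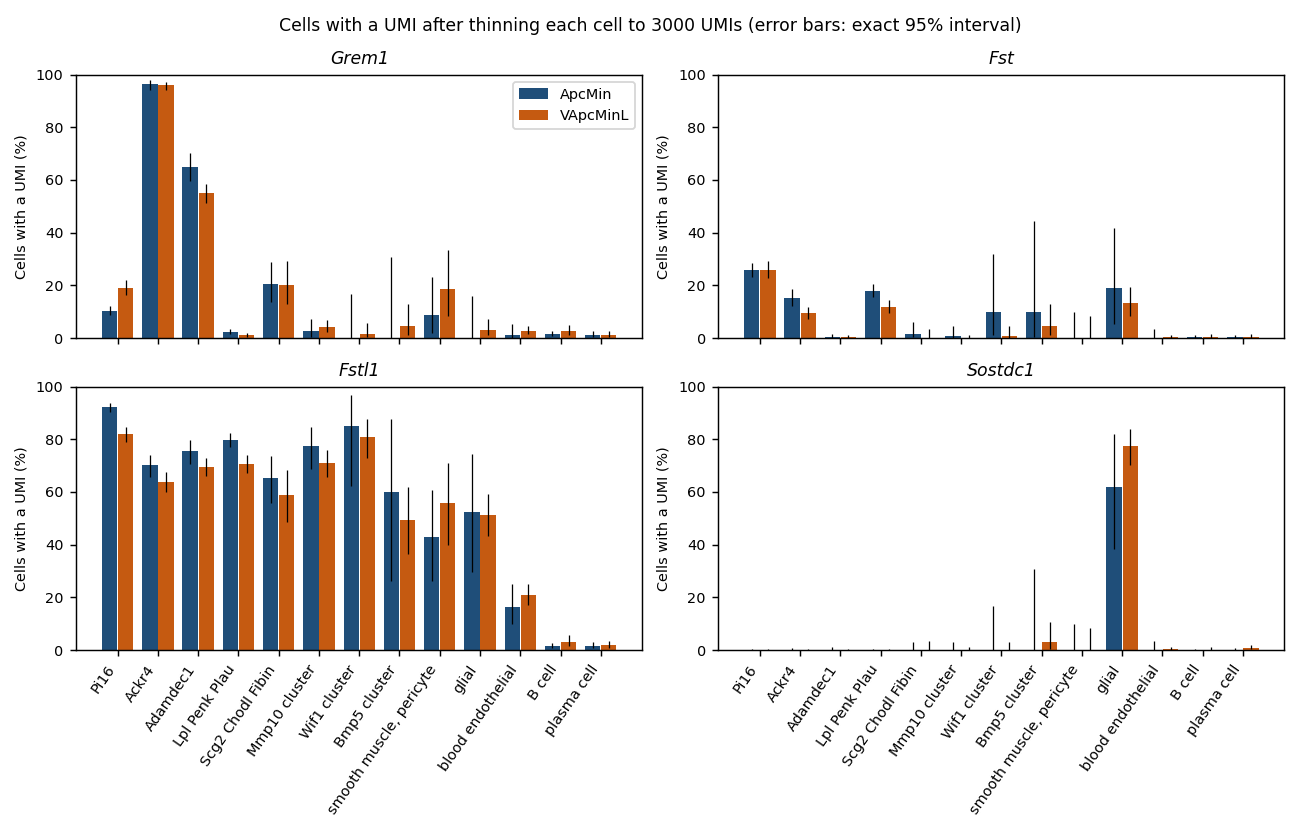
Share of cells (%) with at least 1 UMI of Grem1, Fst, Fstl1 or Sostdc1 after thinning every cell to 3000 UMIs, by cell group and library, with exact 95% binomial error bars for counting error only. Grem1 is detected in 96.3% and 96.0% of the Ackr4 subset, Sostdc1 in 61.9% and 77.5% of glial-like cells, and B cell-like and plasma cell-like cells give the background.

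Patterns over cell groups were set against those of 13519 other genes, as Pearson correlations of log2(CPM + 10) over 21 groups in 2 libraries (42 points that share libraries and depth). They are descriptions, and for Grem1 and Sostdc1, which lead a cluster, they reflect how clusters are named. The 5 genes closest to Grem1 were Rspo2 (0.87), which encodes an R-spondin that boosts Wnt signals, Shisa3 (0.86), Cldn10 (0.85), Gsta3 (0.84) and the chemokine scavenger Ackr4 (0.84). Those closest to Fst were 1700019D03Rik (0.84), Nova1 (0.80), Prokr1 (0.78), Entpd2 (0.78) and Gfpt2 (0.78). Chrd was closest to Plcxd3 (0.93), the collagen-binding integrin Itga11 (0.93), Pdgfra (0.90), Larp6 (0.89) and Ssc5d (0.89). Fstl1 was closest to Nfix (0.98), the collagen chaperone Serpinh1 (0.97), Nid1 (0.97), Rbms3 (0.97) and Dpysl3 (0.97), so both Chrd and Fstl1 tracked general mesenchymal genes. Sostdc1 was closest to Kcna1 (0.99), Slc35f1 (0.99), Sox10 (0.99), Gpr37l1 (0.98) and Cdh19 (0.98), and Chrdl1 to Kctd15 (0.76), Ak1 (0.75), Hspb2 (0.75), Paqr6 (0.75) and Sox8 (0.74). Among the members, Grem1 was nearest to Chrd (0.58) and Fstl1 (0.55) and farther from Fst (0.34). Sostdc1 stood apart from Grem1 (-0.16) and Chrd (-0.18).

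Single cells often carried more than 1 member. In thinned Ackr4 cells the mean was 2.01 members per cell in ApcMin and 1.85 in VApcMinL, and 21.1% and 16.0% had 3 or more. Over all fibroblast-like cells the means were 1.36 and 1.27. Fst and Grem1 were detected apart more than together, since Fst was found in 11.8% (9.68 to 14.1) of ApcMin fibroblast-like cells with a Grem1 UMI and in 19.0% (17.4 to 20.8) of those without. In VApcMinL the shares were 7.85% (6.43 to 9.48) and 11.1% (9.80 to 12.4). Chrdl1 was detected together with Grem1, in 5.29% and 4.04% of cells with a Grem1 UMI against 1.31% and 0.934% of cells without. Both relations mixed subsets. Within the Pi16 subset, Fst was found in 20.2% (13.2 to 28.7) of ApcMin cells with Grem1 and 26.4% (23.7 to 29.3) of those without, and in VApcMinL in 23.6% (16.9 to 31.4) and 26.4% (22.9 to 30), so the intervals overlapped. The VApcMinL difference of -2.74 percentage points was -10.8 with a mitochondrial limit of 10% and -10.1 without thinning.

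Other pairs were compared the same way within subsets. In the Pi16 subset Fst was found in 15.4% (8.21 to 25.3) of ApcMin cells with a Chrd UMI against 26.6% (23.9 to 29.4) without, and in 10.4% (3.47 to 22.7) of VApcMinL cells with Chrd against 26.9% (23.6 to 30.3) without. Fstl1 was found in ApcMin Pi16 cells with and without Grem1 in 85.1% (77.2 to 91.1) and 93.1% (91.3 to 94.6), and the VApcMinL values were 74.3% (66.4 to 81.2) and 83.8% (80.6 to 86.6). In VApcMinL glial-like cells, Sostdc1 was detected in 100% (83.9 to 100) of cells with an Fst UMI and in 74.1% (66.0 to 81.2) of those without. Of 158 such comparisons, 2 directions per pair counted separately, 25 had intervals that did not overlap, and 18 of those 25 were over the fibroblast-like class as a whole.

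Grem1 in the Pi16 subset came from a minority of cells. With at least 10 Grem1 UMIs, 50 of 1109 ApcMin cells held 1526 of its 1877 UMIs, and 80 of 755 VApcMinL cells held 2691 of 3154. The cells were grouped by Grem1 UMIs, in a split made after the levels had been seen, and 5 other genes were read. Ackr4 was at 185 CPM in ApcMin Pi16 cells with 0 Grem1 UMIs, 278 CPM in those with 1 to 9 and 512 CPM in those with at least 10, and in VApcMinL at 192, 227 and 398 CPM. Pi16 itself, the marker of adventitial-type fibroblasts, went from 758 CPM to 350 and 46.0 CPM over the same steps in ApcMin and from 399 to 257 and 232 CPM in VApcMinL. Fst went from 149 to 105 and 80.1 CPM and from 166 to 158 and 81.7 CPM. Rspo3 and Adamdec1, the other genes read, did not step alike in the libraries. Rspo3 was at 93.0, 99.9 and 97.2 CPM in ApcMin and at 74.2, 71.3 and 87.7 CPM in VApcMinL. Adamdec1 was at 6.87, 7.61 and 7.88 CPM in ApcMin, and in VApcMinL it was lowest with 0 Grem1 UMIs (14.6 CPM) and highest with 1 to 9 (117 CPM).

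**Figure D3:**
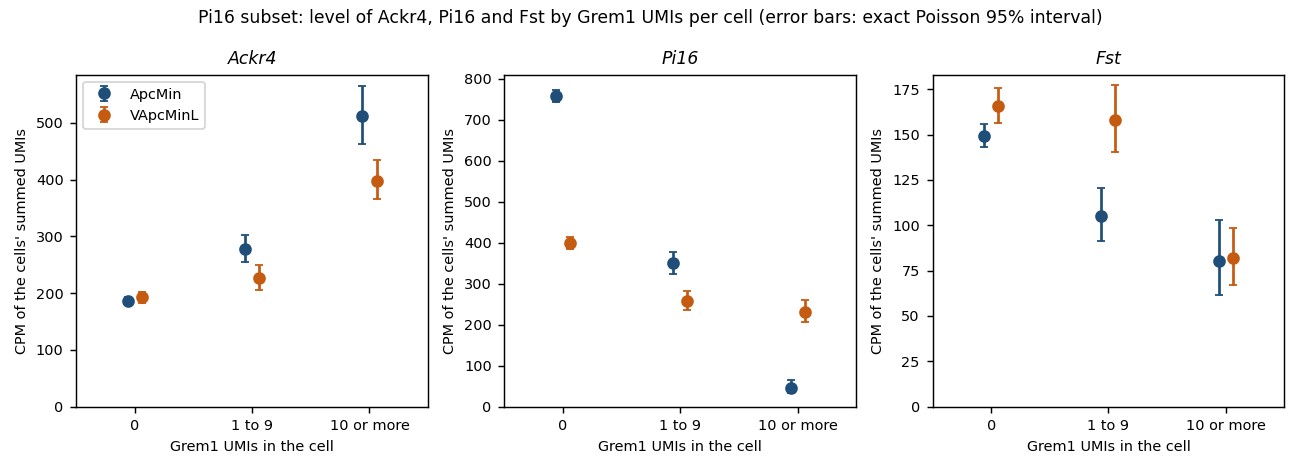
Levels (CPM) of Ackr4, Pi16 and Fst in Pi16 subset cells grouped by Grem1 UMIs per cell (0, 1 to 9, at least 10), by library, with exact 95% Poisson error bars for counting error only. Ackr4 is highest (512 and 398 CPM) and Pi16 and Fst lowest in the cells with at least 10 Grem1 UMIs.

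The libraries were compared to ask whether deleting Lef1 in the epithelium goes with a change of BMP antagonists in the stroma. In fibroblast-like cells, Grem1 was at 669 CPM (661 to 677) in ApcMin and 807 CPM (799 to 816) in VApcMinL, a ratio of VApcMinL to ApcMin of 1.21 (1.19 to 1.23). For Fst the levels were 88.6 CPM (85.7 to 91.5) and 62.9 CPM (60.4 to 65.4), with a ratio of 0.710 (0.674 to 0.747). For Fstl1 they were 881 CPM (872 to 890) and 580 CPM (573 to 588), with a ratio of 0.659 (0.648 to 0.670). Chrd (24.5 and 24.0 CPM) and Chrdl1 (9.37 and 8.90 CPM) gave ratios of 0.981 (0.897 to 1.07) and 0.95 (0.819 to 1.10), whose intervals include 1. Of the 5 members with at least 200 UMIs in this class, 0 lay at least 2-fold apart, against 3.26% of the 11609 genes with that many UMIs (293 higher and 86 lower in VApcMinL). At that share, 0 of 5 does not set the members apart from other genes. Nog and Sostdc1 had too few UMIs there to be read. These ratios compare 2 libraries, and no spread between mice is known.

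The mix of fibroblast-like cells differed between the libraries. The Pi16 subset gave 40.6% of fibroblast-like UMIs in ApcMin and 26.6% in VApcMinL, the Lpl Penk Plau subset 24.7% and 16.8%, the Ackr4 subset 16.8% and 21.0%, and the Adamdec1 subset 10.0% and 18.4%. With the VApcMinL subsets weighted as in ApcMin, the Grem1 ratio was 1.0 and the Fst ratio 0.987, and the Fstl1 ratio was 0.735. The Grem1 and Fst ratios over all fibroblast-like cells thus came closer to 1 when shares were held fixed, and a lower Fstl1 level was left. A weighted ratio near 1 does not mean equal levels within subsets. It pools ratios on both sides of 1, such as 2.74 in the Pi16 and 0.715 in the Adamdec1 subset for Grem1. For Fst these include 1.09 in the Pi16 and 0.716 in the Ackr4 subset. Whether the shares differ between genotypes or between 2 cell preparations cannot be told apart here.

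Within subsets, the Fstl1 ratio lay below 1 in each of the 7 fibroblast-like clusters with at least 200 UMIs of it. The ratio was 0.713 (0.696 to 0.730) in the Pi16 subset, where it ran from 0.675 to 0.936 over the alternative settings. It was 0.693 (0.663 to 0.723) in the Lpl Penk Plau subset and 0.812 (0.770 to 0.856) in the Adamdec1 subset. The Ackr4 subset had 0.865 (0.823 to 0.909) and the Scg2 Chodl Fibin subset 0.835 (0.731 to 0.954). In the Mmp10 and Wif1 clusters it was 0.899 (0.825 to 0.981) and 0.786 (0.670 to 0.926). Blood endothelial-like cells went the other way, with 67.3 CPM (49.8 to 89.0) and 101 CPM (89.9 to 113), a ratio of 1.5 (1.11 to 2.07), and glial-like cells had a ratio of 1.09 (0.748 to 1.66). None of these Fstl1 ratios reached 2-fold.

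For Grem1 the direction differed by subset. In the Ackr4 subset the ratio was 0.905 (0.888 to 0.922), or 1.08 (1.06 to 1.11) with cells classed one by one from their markers, with 0 of 5 members at least 2-fold apart against 0.755% of genes, and in the Adamdec1 subset it was 0.715 (0.686 to 0.746), with 0 of 3 against 1.81%. In the Pi16 subset the ratio was 2.74 (2.59 to 2.90), and Grem1 was the 1 of 5 members at least 2-fold apart there, against 1.96% of 9126 genes. Detection in thinned Pi16 cells was 10.3% (8.55 to 12.2) in ApcMin and 19.1% (16.3 to 22.1) in VApcMinL, and Pi16 cells with at least 10 Grem1 UMIs made up 4.51% and 10.6%. Over the alternative settings this ratio ran from 2.03 to 4.62. The Grem1 difference in the Pi16 subset thus goes with a larger share of Grem1-rich cells, and whether cells of the 2 subsets were divided alike in both libraries was not tested.

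The other Grem1 ratios rested on few cells. In the Lpl Penk Plau subset, where Grem1 was the 1 of 4 members called against 1.31% of genes, the ratio of 0.382 (0.305 to 0.476) turned to between 1.0 and 2.81 under 6 of the alternative settings. In the Mmp10 cluster, with 1 of 2 called against 2.11%, the levels of 9.04 and 129 CPM gave a ratio of 14.2 (8.06 to 27.8), but 1 VApcMinL cell held 199 of the 423 UMIs and 10 cells held 97.6%. In the Scg2 Chodl Fibin subset the ratio was 1.27 (1.07 to 1.52), with 0 of 2 members called against 3.28%. Detection in thinned cells of that subset was 20.3% and 20.2%.

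Fst and Chrd ratios were on both sides of 1 within subsets. The Fst ratio was 1.09 (1.02 to 1.16) in the Pi16 subset, or 0.933 (0.848 to 1.03) with cells classed one by one from their markers, 0.846 (0.754 to 0.949) in the Lpl Penk Plau subset and 0.716 (0.620 to 0.826) in the Ackr4 subset. For Chrd it was 0.817 (0.690 to 0.965) in the Pi16 subset, 1.41 (1.12 to 1.77) in the Lpl Penk Plau subset and 0.916 (0.728 to 1.16) in the Adamdec1 subset. For Chrdl1 it was 0.852 (0.697 to 1.04) in the Ackr4 subset and 1.03 (0.790 to 1.33) in the Pi16 subset. In glial-like cells the Sostdc1 ratio was 1.25 (0.980 to 1.61), with 0 of 2 members at least 2-fold apart against 2.70% of genes, and in blood endothelial-like cells 0 of 1 against 2.56%. The interval of the glial Sostdc1 ratio includes 1.

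**Figure D4:**
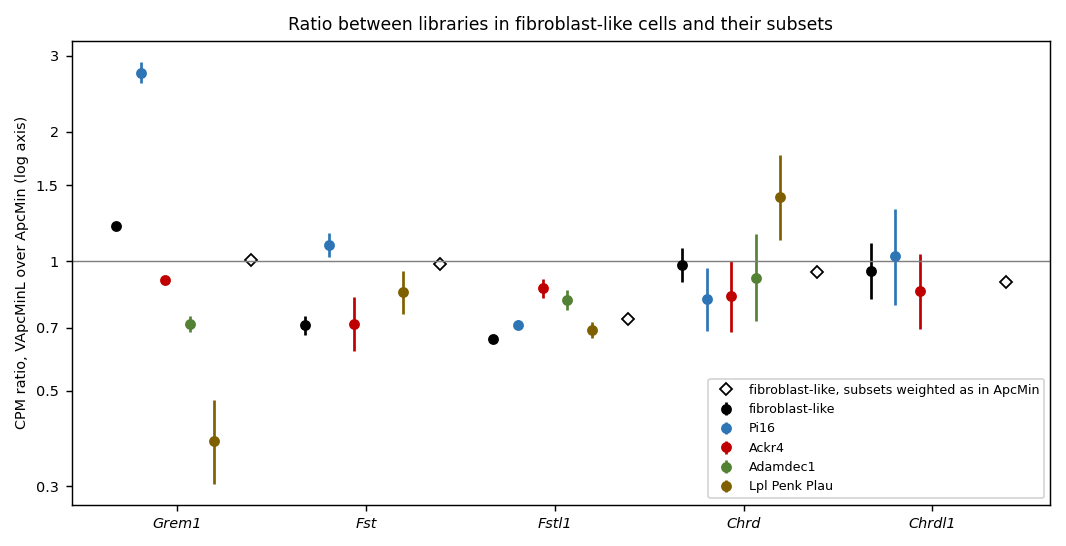
Ratio of the VApcMinL to the ApcMin level (log axis) of 5 members in fibroblast-like cells and 4 of their subsets, with exact 95% error bars for counting error only and a line at 1. Open diamonds give the fibroblast-like ratio with the VApcMinL subsets weighted as in ApcMin. Fstl1 lies below 1 in each fibroblast-like subset shown, whereas Grem1 lies at 2.74 in the Pi16 subset and at 0.905 in the Ackr4 subset.

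The genes these antagonists act on were read in the same fibroblast-like cells, from role lists. Of 13 BMP and GDF ligands, 9 had at least 200 UMIs, and 2 of them, Bmp3 (2.92 and 6.71 CPM, ratio 2.30) and Bmp5 (17.4 and 44.4 CPM, ratio 2.55), were at least 2-fold higher in VApcMinL, with 0 lower, against 3.26% of all genes with that many UMIs, the share against which the count of each list here is read. The cluster led by Bmp5, where these ligands were highest, made up 0.305% of fibroblast-like UMIs in ApcMin and 1.57% in VApcMinL, and the Mmp10 cluster 3.20% and 8.46%. Within the Bmp5 cluster the levels were lower in VApcMinL, at 1106 and 952 CPM for Bmp5 and 490 and 332 CPM for Bmp3, and the part of these shares in both ratios was not tested. The most abundant ligands by UMIs were Bmp4 (197 and 280 CPM, ratio 1.42), Gdf10 (233 and 189 CPM, ratio 0.810) and Bmp2 (62.1 and 80.9 CPM, ratio 1.30). Bmp4 was at 250 and 291 CPM in the Ackr4 subset, 426 and 439 CPM in the Adamdec1 subset and 63.9 and 70.2 CPM in the Pi16 subset, so the subset richest in Grem1 also held this ligand. Bmp5 was at 1.15 and 3.06 CPM in the Ackr4 subset and 274 and 185 CPM in the Mmp10 cluster.

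**Figure D5:**
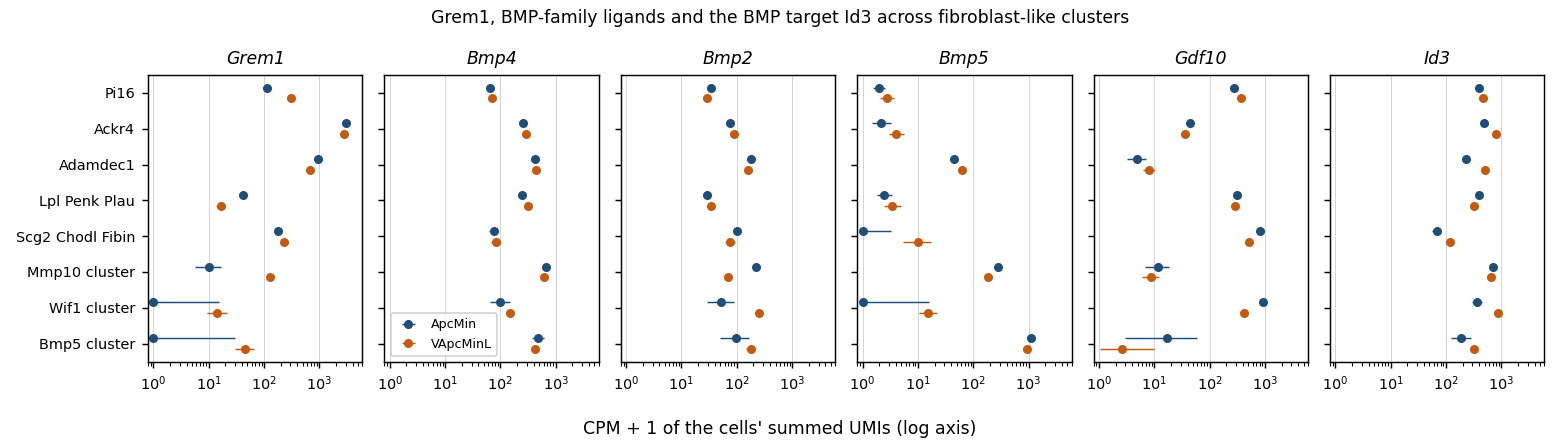
Levels (CPM + 1, log axis) of Grem1, 4 ligands and the target Id3 in the fibroblast-like clusters, 1 point per library with exact 95% Poisson error bars for counting error only. Grem1 is highest in the Ackr4 subset, which also holds Bmp4 (250 and 291 CPM), and low in the cluster led by Bmp5 (0 and 44.1 CPM).

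Of 3 genes for ligands that follistatin binds, the activin subunits Inhba and Inhbb and myostatin (Mstn), 2 had at least 200 UMIs. Of these 2, 1, Inhba, was at least 2-fold higher, at 9.20 CPM in ApcMin and 21.8 CPM in VApcMinL (ratio 2.37). Inhbb was at 6.79 and 11.9 CPM (ratio 1.76), and Mstn had 0 UMIs in both. Inhba was at 43.5 and 275 CPM in the Wif1 cluster (20 and 121 cells), which made up 0.610% and 4.25% of fibroblast-like UMIs, and at 9.14 and 6.20 CPM in the Pi16 subset, which had the most Fst.

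None of the 9 receptors with enough UMIs (of 11) or the 6 Smads lay 2-fold apart, against the same 3.26% of genes. Bmpr2, the type II receptor, was at 203 CPM in both libraries, Bmpr1a at 125 and 109 CPM and Eng, a co-receptor, at 96.0 and 103 CPM. Among the Smads, the inhibitory Smad7 was at 85.5 and 108 CPM, Smad4 at 83.7 and 82.0 and Smad1 at 68.6 and 75.3. Of 9 target genes with enough UMIs (of 10), 1, Id1, was at least 2-fold higher in VApcMinL, at 29.6 and 61.5 CPM (ratio 2.08, 1.94 to 2.22). Id3 was at 389 and 542 CPM (ratio 1.40), Id2 at 135 and 150 CPM and Smurf2 at 76.6 and 59.0 CPM. Id1 and Id3, which BMP signals induce in many cells, were at 35.9 and 48.2 CPM and at 485 and 813 CPM in the Ackr4 subset, and Id3 was at 233 and 506 CPM in the Adamdec1 subset.

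Other antagonists outside the 7 were measured as well. Of 14, 12 had enough UMIs, and 1, Vwc2 (brorin), was at least 2-fold higher, at 9.59 and 25.6 CPM (ratio 2.67). Vwc2 was chiefly an Adamdec1 gene, at 75.6 and 102 CPM in that subset, where its ratio was 1.34. The most abundant were Nbl1 (332 and 411 CPM), Twsg1 (158 and 147 CPM) and Crim1 (40.1 and 45.5 CPM). Of 3 listed proteases of the Bmp1 and tolloid-like family, which includes enzymes that cut chordin, Bmp1 alone had enough UMIs, at 157 and 129 CPM. Tll1 and Tll2 were at 0.482 and 0.412 CPM and at 1.08 and 0.823 CPM. Median log2 ratios were 0.42 for the ligands, -0.05 for the receptors, 0.11 for the Smads, 0.15 for the targets and 0.13 for the other antagonists, beside -0.02 over all 11609 genes.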

How the data were processed

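Gene expression was measured by droplet 3′ single-cell RNA-seq (Reagent Kit v3) in 2 libraries of sorted mouse lamina propria cells. The deposited files hold raw UMI counts per gene and barcode for all barcodes, made by the authors with Cell Ranger on mm10/GRCm38. The submitters' notes give version 2.1.1 and the file headers 3.1.0. Nothing was normalized by the authors in these files.

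Barcodes with at least 3000 UMIs and at most 20% mitochondrial UMIs were kept, which left out 75 ApcMin and 531 VApcMinL barcodes above that minimum by the mitochondrial limit. Doublets were taken out by Scrublet score (scanpy 1.11.5) at 0.8% per 1000 barcodes. Cells were clustered in Seurat 5.3.0 (R 4.3.3) as in the study's methods: 10000 scaling, anchors on 2000 genes and 30 dimensions, 20 components, resolution 0.2. The study used Seurat 3.1.1, so clusters need not match its own. The 7 members were left out of the genes clustered on and of cluster naming. Fibroblast clusters were clustered again, and 2 of them, led by immunoglobulin or hemoglobin genes, were left unnamed and out of the fibroblast-like class.

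UMIs were summed per cell group and library and divided by the group's total (CPM). Intervals were exact Poisson, Clopper-Pearson or conditional binomial (scipy 1.17.1, Python 3.11.15), and a count of 0 was given a limit of 3 counts. A gene was called at a ratio of at least 2 or at most 1/2 with at least 200 UMIs. Scripts were tested on simulated data with known ratios. Named genes were all members, the 3 genes of each role list with most UMIs, role list genes called in fibroblast-like cells, and the 5 genes most like each member with at least 200 UMIs in all cells. The members and lists were chosen with earlier results of these data known. Alternatives covered the UMI and mitochondrial limits, doublets, trimming, clustering, thinning, TMM scaling (edgeR 4.0.16) and the UMI minimum per gene.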

Additional observations from a re-analysis of the deposited data

Results flagged for a closer look

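The ratio of the VApcMinL to the ApcMin level lay on opposite sides of 1 in different cell groups for 4 members, with intervals for counting error that exclude 1. The difference between groups was not tested for any of them, because each genotype has 1 library. Grem1 was higher in VApcMinL in the Pi16 subset (2.74), the Scg2 Chodl Fibin subset (1.27) and the Mmp10 cluster (14.2), and lower in the Ackr4 (0.905), Adamdec1 (0.715) and Lpl Penk Plau (0.382) subsets. Chrd was higher in the Lpl Penk Plau subset (1.41) and lower in the Pi16 subset (0.817). Fst was higher in the Pi16 subset (1.09) and lower in the Ackr4 (0.716) and Lpl Penk Plau (0.846) subsets and in epithelial-like cells (0.141). With cells classed one by one from their markers, the Grem1 ratio in the Ackr4 subset was 1.08 (1.06 to 1.11) and the Fst ratio in the Pi16 subset 0.933 (0.848 to 1.03), and the Grem1 ratio in the Lpl Penk Plau subset lay above 1 under 6 alternatives. Fstl1 was higher in blood endothelial-like cells (1.5). It was lower in the Ackr4 (0.865), Adamdec1 (0.812), Lpl Penk Plau (0.693), Pi16 (0.713) and Scg2 Chodl Fibin (0.835) subsets, in the Mmp10 (0.899) and Wif1 (0.786) clusters and in epithelial-like cells (0.379). Both epithelial ratios rested on few cells. For Fst, 1 epithelial-like cell held 39.1% of the ApcMin and 1 held 48.4% of the VApcMinL UMIs, and for Fstl1 46.7% and 16.0%. The share of all genes at least 2-fold apart was not computed for epithelial-like cells.

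Sostdc1 was also present in barcodes that the rule left out. In VApcMinL barcodes with at least 1000 but fewer than 3000 UMIs it was at 20.2 CPM (15.9 to 25.2), above the 8.53 CPM (6.20 to 11.5) of empty droplets. In ApcMin the same barcodes had 3 UMIs, or 1.57 CPM (0.324 to 4.59).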

How the results depend on the processing

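No paired analysis was possible because there is 1 library of each genotype. The counts that follow leave out the main results. Those are the Grem1, Fst and Fstl1 ratios in fibroblast-like cells, and Grem1 share and detection in the Ackr4 subset. They also include the Fst difference in Pi16 cells and the count of members 2-fold apart. Of 421 other values under an alternative, 335 stayed within their counting interval, 80 moved beyond it and 6 were ratios at least 2-fold from 1 that crossed it. Among the 421, 26 ratios lay on the other side of 1 under an alternative, those 6 among them, and 46 values moved by over 1.5 times. The share of all genes at least 2-fold apart, also among the 421, has no interval and counted as staying when within 1.5 times. The 6 were the Grem1 ratio in the Lpl Penk Plau subset, which went from 0.382 to 2.02 with at least 5000 UMIs, 1.0 with mitochondrial UMIs at most 10%, 1.06 with doublets kept, 2.01 with cells trimmed by detected genes, 2.05 with members among the clustering genes and 2.81 with cells classed one by one from their markers. The Grem1 ratio in fibroblast-like cells was 1.23 with the 10% limit, 1.24 with cells classed by their own markers, 1.24 with the unnamed clusters counted in and 1.0 with ApcMin subset shares. The Fst ratio was 0.673 without the 10 cells richest in it and 0.987 with ApcMin shares, and the Fstl1 ratio 0.647 and 0.735. The share of Grem1 UMIs in the Ackr4 subset (ApcMin, then VApcMinL) was 71.7% and 67.5% at 1000 UMIs, 76.0% and 71.2% with the 10% limit, 70.4% and 66.0% with doublets, 75.7% and 71.7% trimmed, 75.0% and 71.1% without integration, 75.7% and 71.0% with members clustered on, and 53.3% and 48.0% with cells classed by their own markers. At 5000 UMIs the ApcMin share was 75.3%. Detection of Grem1 in Ackr4 cells was 99.6% and 99.3% without thinning, 85.9% and 83.1% thinned to 1000 UMIs, and 68.0% and 75.5% with cells classed by their own markers, and in VApcMinL 97.6% at both other UMI minimums. The difference in Fst detection between VApcMinL Pi16 cells with and without Grem1, -2.74 points, was -10.8 with the 10% limit and -10.1 without thinning. The cause of these changes was not tested. With a minimum of 20 UMIs per gene, 1541 of 15690 genes (9.82%) lay at least 2-fold apart in fibroblast-like cells, against 379 of 11609 at 200 UMIs, and 0 members did so in either case.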

Other observations

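Epithelial-like cells that passed the sort carried Fst in few cells, and these were read by Lgr5, the intestinal stem cell marker, in a split chosen after the values were seen. In ApcMin, 6 of 6 epithelial-like cells with an Lgr5 UMI had Fst, at 102 CPM (83.5 to 124), and 2 of 37 cells without had it, at 17.1 CPM (11.5 to 24.6). In VApcMinL, 4 of 9 cells with an Lgr5 UMI had Fst, at 82.6 CPM (64.7 to 104), and 10 of 292 without, at 1.47 CPM (0.872 to 2.32). Of the Fst UMIs in cells with an Lgr5 UMI, 1 cell held 52 of 104 in ApcMin and 1 cell held 44 of 73 in VApcMinL. The level over all epithelial-like cells was 49.1 and 6.93 CPM, and cells with an Lgr5 UMI were 6 of 43 and 9 of 301, while the level in cells without one differed too. The cells with an Lgr5 UMI had median depths of 117586 and 66140 UMIs, against 44303 and 41610 for the rest, and the part of depth in detection was not tested. The fibroblast gene Col1a2 was at 6.88 and 75.8 CPM in cells with an Lgr5 UMI and at 70.3 and 35.0 CPM in those without.

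The 2 fibroblast clusters left without a name also held Grem1. The one led by immunoglobulin genes had 549 CPM (499 to 603) in 46 ApcMin cells and 1237 CPM (1156 to 1323) in 55 VApcMinL cells, and the one led by hemoglobin genes had 353 CPM (322 to 386) in 72 cells and 169 CPM (116 to 238) in 13. In acinar-like cells of VApcMinL, 43 Grem1 UMIs were in 2 of 16 cells.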
